A study of Mus musculus with 6 samples.

Results

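The protein arginine methyltransferase (PRMT) family was examined gene by gene in mouse liver tumors in which *Prmt3*, one of its members, had been deleted in hepatocytes. The 8 genes *Prmt1*, *Prmt2*, *Prmt3*, *Carm1*, *Prmt5*, *Prmt6*, *Prmt7* and *Prmt9* were taken by name from a table of 34745 genes. Of these, 7 matched by symbol, and *Prmt9* was found by its Ensembl identifier under its older name *Prmt10*. All 8 were among the 13892 genes that passed the filter on low counts. The question was whether the other PRMT genes differ between genotypes when *Prmt3* is lost.

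RNA-seq was performed on 3 tumors of *Prmt3* f/f mice, which carry floxed *Prmt3* alleles without Cre, and 3 tumors of *Prmt3* LKO mice, which carry the same floxed alleles together with the Alb-Cre transgene. The albumin promoter drives Cre in hepatocytes, so *Prmt3* stays intact in the endothelial, stromal and immune cells of a tumor. All mice had been injected with diethylnitrosamine (DEN, 25 mg/kg) at 2 weeks of age and with 10% carbon tetrachloride (CCl4, 0.5 ml/kg) from 6 weeks, and tumors were collected at 26 weeks. The labels call the floxed group WT and do not say whether the tumors of a group came from separate mice, so p-values measure the spread between these tumors.

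PRMTs transfer methyl groups from S-adenosylmethionine (SAM) to arginine residues of proteins. Type I enzymes (PRMT1, PRMT2, PRMT3, CARM1, PRMT6 and the brain enzyme PRMT8) make asymmetric dimethylarginine, type II enzymes (PRMT5 and PRMT9) make symmetric dimethylarginine, and the type III enzyme PRMT7 makes monomethylarginine only. PRMT1 carries out most asymmetric arginine methylation in mammalian cells, and PRMT3 is a mostly cytosolic enzyme with a zinc finger, known for methylating the ribosomal protein RPS2.

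The 250 bases before the RefSeq start of *Prmt3* (GRCm38.p6, plus strand, chr7:49778108-49778357) are shown because this is the deleted gene. Those of *Prmt1* (minus strand, chr7:44986421-44986670) are shown because 2 overlapping entries of the table held reads of its locus. In the GENCODE M21 annotation *Prmt1* starts at 44986568 on the minus strand, so part of its window lies inside that gene. Both windows are written 5′ to 3′ with CG dinucleotides in capitals.
Prmt3: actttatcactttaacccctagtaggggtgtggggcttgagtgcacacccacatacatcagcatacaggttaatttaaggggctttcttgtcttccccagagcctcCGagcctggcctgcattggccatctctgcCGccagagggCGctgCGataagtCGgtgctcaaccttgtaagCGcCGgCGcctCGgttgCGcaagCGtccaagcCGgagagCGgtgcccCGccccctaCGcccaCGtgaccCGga
Prmt1: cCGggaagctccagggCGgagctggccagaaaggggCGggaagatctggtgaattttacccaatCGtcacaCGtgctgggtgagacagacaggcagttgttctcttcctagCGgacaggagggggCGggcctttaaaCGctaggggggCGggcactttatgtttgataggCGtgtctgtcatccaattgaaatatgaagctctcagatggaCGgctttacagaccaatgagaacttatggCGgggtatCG
RefSeq windows matched 7 of the 8 genes, all but *Carm1*. The *Prmt3* window held 17 CG dinucleotides and the *Prmt1* window 13, and the 7 PRMT windows ranged from 13 to 35, against a median of 6 over 32851 promoter windows of the same length. As percentiles of all windows these counts were 68.5 (*Prmt1*, *Prmt5* and *Prmt6*), 70.6 (*Prmt2* and *Prmt9*), 76.5 (*Prmt3*) and 97.0 (*Prmt7*). CCAAT was present on either strand in 4 of the 7 windows (*Prmt1*, *Prmt2*, *Prmt3* and *Prmt5*), against 33.8% of all windows. GGGCGG was also present in 4 of the 7 (*Prmt1*, *Prmt2*, *Prmt3* and *Prmt7*), against 32.7% of all windows. CGGAAG was present in 2 of the 7 (*Prmt2* and *Prmt7*, 13.6% of all windows) and TATAAA in 1 (*Prmt2*, 12.4%). These matches describe the letters of the windows, on which no binding or chromatin was measured here.

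Between 18440244 and 27976598 reads were counted per tumor. Levels are given as CPM, counts scaled to a common library size, with TMM factors. A count of 0 in a tumor leaves room for about 0.107 to 0.163 CPM (3 counts over the library total without TMM factors, counting error only). Hepatocyte markers were abundant in every tumor, with a sum over 10 genes of 139134 to 200272 CPM in *Prmt3* f/f tumors and 155233 to 166489 CPM in *Prmt3* LKO tumors. No gene passed an adjusted p under 0.05 with a fold of at least 2 or at most 0.5 in edgeR's quasi-likelihood test (0 of 13892, 0%), while 912 genes (6.56%) had an unadjusted p under 0.05. DESeq2 called 52 of 13879 genes (0.375%) at the same limits, and limma-voom called 0.

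*Prmt3* (ENSMUSG00000030505, chromosome 7 of GRCm38 from 49778346 to 49858265, plus strand) was examined first. Its counts were 143 (replicate 7), 182 (replicate 66) and 289 (replicate 71) reads in the *Prmt3* f/f group, and 49 (replicate 92), 45 (replicate 93) and 76 (replicate 94) reads in the *Prmt3* LKO group. The highest *Prmt3* LKO tumor, replicate 94, was below the lowest *Prmt3* f/f tumor, replicate 7, in CPM as well as in reads. The mean was 8.41 ± 1.78 CPM (SD, n = 3) in *Prmt3* f/f and 2.88 ± 0.897 CPM (SD, n = 3) in *Prmt3* LKO tumors, which is 34.3% of the f/f level. The fold change was 0.342, with a 95% interval of 0.214 to 0.546. *Prmt3* was 14th of 13892 genes by unadjusted p (0.000826). Its log2 fold change of -1.55 (standard error 0.29) had an adjusted p of 0.592 in edgeR's quasi-likelihood test, where no gene passed, and 0.00357 in DESeq2, where *Prmt3* was the 1 PRMT gene called. The exact permutation p (two-sided) was 0.1, which is the lower limit for groups of 3. Groups without overlap were found in 6.59% of all genes tested for lower and in 5.57% for higher levels in *Prmt3* LKO tumors.

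The remaining *Prmt3* reads could not be assigned to a cell type. In bulk tumor RNA, fewer cells of a type and less RNA per cell cannot be told apart, and in counts per gene the deleted exons cannot be told apart from the rest of the transcript. Macrophage, T and NK cell, and neutrophil markers were lower in the same *Prmt3* LKO tumors. The sum of 8 macrophage markers ranged from 521.1 to 577.7 CPM in *Prmt3* f/f and from 347.1 to 503.6 CPM in *Prmt3* LKO tumors. On the log2 fold change scale 8 of 8 were below 0, and 5 of them had an unadjusted p under 0.05, against 6.56% of all genes tested. The sum of 8 T and NK cell markers ranged from 25.7 to 31.0 CPM and from 6.11 to 17.6 CPM. Of the tested markers 7 of 7 were below 0, and 4 had an unadjusted p under 0.05. The sum of 6 neutrophil markers ranged from 13.5 to 25.8 CPM and from 6.63 to 8.88 CPM. All 4 tested were below 0 with an unadjusted p under 0.05. Endothelial (316.5 to 405.0 and 318.8 to 386.1 CPM) and stellate cell and fibroblast markers (462.3 to 1023 and 495.8 to 763.5 CPM) overlapped between genotypes. B cell markers (7.74 to 8.71 and 4.80 to 7.75 CPM) and cholangiocyte markers (327.6 to 4100 and 207.0 to 355.6 CPM) also overlapped. The B cell overlap was narrow, with a lowest *Prmt3* f/f sum of 7.739 and a highest *Prmt3* LKO sum of 7.754 CPM. Of the tested markers, 5 of 8 endothelial and 7 of 8 stellate cell and fibroblast markers were below 0 (median log2 fold changes -0.10 and -0.25). Below 0 as well were 4 of 5 B cell and 4 of 5 cholangiocyte markers (medians -0.55 and -0.69). In these 4 lists only 1 gene, a cholangiocyte marker, had an unadjusted p under 0.05. The neutrophil marker *Ly6g* had 0 reads in all *Prmt3* LKO tumors and in all but 1 *Prmt3* f/f tumor, and the others of these lists were counted in both groups. The part of these cells in the *Prmt3* level was not tested.

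**Figure D1:**
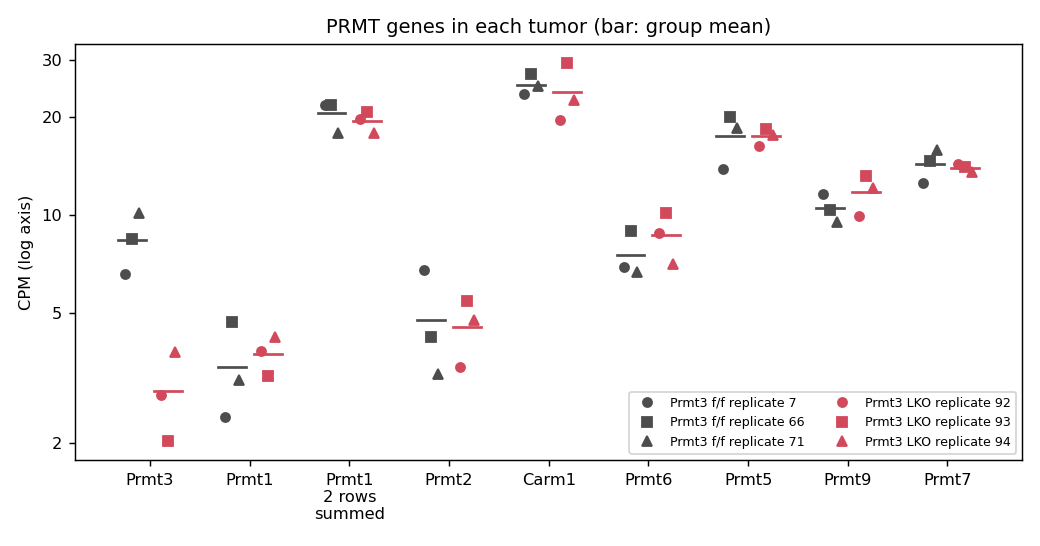
CPM of each PRMT gene (vertical log axis) in each of the 3 *Prmt3* f/f tumors (grey) and 3 *Prmt3* LKO tumors (red), with a bar at each group mean. The *Prmt3* points of the groups do not overlap (6.60 to 10.2 against 2.03 to 3.82 CPM), and those of every other gene do.

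Among the other type I genes, *Prmt1* (ENSMUSG00000052429, chromosome 7 from 44976756 to 44986420, minus strand) came with a limit of the table. The entry named *Prmt1* held only 52, 101 and 89 reads in *Prmt3* f/f and 67, 71 and 84 reads in *Prmt3* LKO tumors. A second entry, AC155806.1 (ENSMUSG00000108653, chromosome 7 from 44976900 to 44986318), lies on the same strand and shares 9419 bases with it. AC155806.1 held 422, 368 and 420 reads in *Prmt3* f/f and 278, 390 and 272 reads in *Prmt3* LKO tumors. In GENCODE M21, an annotation of the same build, 1 *Prmt1* gene (ENSMUSG00000109324, 44975989 to 44986568) spans both, and neither of the identifiers used in the table is present.

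The *Prmt1* entry therefore held a minor and variable share of the summed reads of both entries: 11.0%, 21.5% and 17.5% in *Prmt3* f/f and 19.4%, 15.4% and 23.6% in *Prmt3* LKO tumors. How reads were assigned to the entries is not given in the sources used here. Whether a read could be counted under both is also not given, and the sum below would then be too high. The *Prmt1* entry alone was at 3.41 ± 1.18 CPM (SD, n = 3) in *Prmt3* f/f and 3.75 ± 0.513 CPM (SD, n = 3) in *Prmt3* LKO tumors. The log2 fold change was 0.14 (standard error 0.30, edgeR adjusted p = 0.983). AC155806.1 alone had a log2 fold change of -0.12 (standard error 0.17, edgeR adjusted p = 0.961).

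With both entries summed (an alternative added with the values in view), the locus had 474, 469 and 509 reads in *Prmt3* f/f and 345, 461 and 356 reads in *Prmt3* LKO tumors. Scaled by library size these were 21.9, 21.9 and 17.9 CPM against 19.7, 20.8 and 17.9 CPM, and the groups overlapped. The means were 20.5 ± 2.30 CPM and 19.5 ± 1.47 CPM (SD, n = 3 each). The log2 fold change was -0.08 (standard error 0.15), with a 95% interval of -0.43 to 0.27 and an edgeR adjusted p of 0.976. Summing narrowed the interval of *Prmt1*, which was -0.57 to 0.84 for the entry alone, and turned the sign of the estimate.

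**Figure D2:**
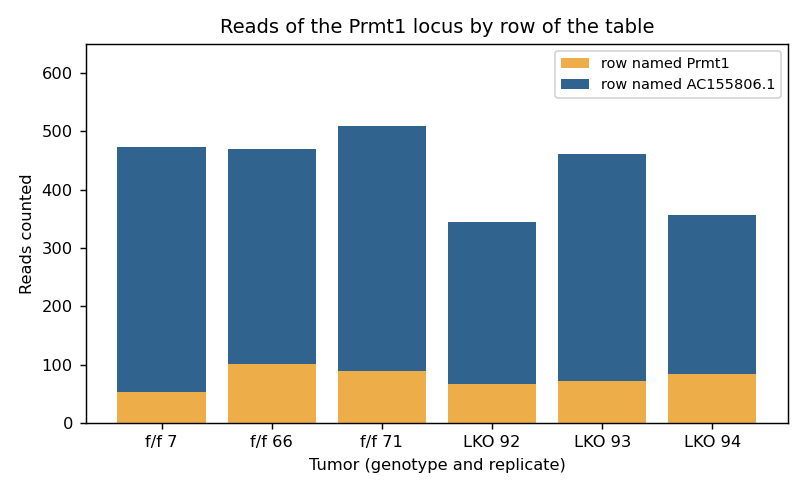
Reads counted for the entry named *Prmt1* (yellow) and the overlapping entry AC155806.1 (blue), stacked, in each tumor. The *Prmt1* entry holds between 11.0% and 23.6% of the summed reads of both entries.

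*Carm1*, the coactivator-associated type I enzyme also called PRMT4 (ENSMUSG00000032185, chromosome 9 from 21546894 to 21589487, plus strand), had 23.6, 27.1 and 24.8 CPM in *Prmt3* f/f and 19.6, 29.3 and 22.5 CPM in *Prmt3* LKO tumors. The lowest and the highest value were both in *Prmt3* LKO tumors. Its means were 25.2 ± 1.80 and 23.8 ± 4.99 CPM (SD, n = 3 each), a log2 fold change of -0.08 (standard error 0.18, 95% interval -0.49 to 0.34, edgeR adjusted p = 0.983). *Carm1* shares 779 bases with *Yipf2* on the opposite strand, which held 473 to 716 reads per tumor, so reads there cannot be told apart without strand.

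*Prmt6*, a nuclear type I enzyme that methylates histone H3 (ENSMUSG00000049300, chromosome 3 from 110246109 to 110250998, minus strand), had 6.92, 8.95 and 6.71 CPM in *Prmt3* f/f and 8.80, 10.1 and 7.08 CPM in *Prmt3* LKO tumors. *Prmt3* f/f replicate 66 lay above 2 of the 3 *Prmt3* LKO tumors. The means were 7.53 ± 1.24 and 8.67 ± 1.53 CPM (SD, n = 3 each). The log2 fold change of 0.21 (standard error 0.21, 95% interval -0.28 to 0.69) was the largest of the 7 other PRMT genes. It was not past the threshold (edgeR adjusted p = 0.945, exact permutation p = 0.3). The antisense entry *C130013H08Rik* shares 984 bases with it and held 38 to 70 reads per tumor.

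*Prmt2*, a type I enzyme with an SH3 domain (ENSMUSG00000020230, chromosome 10 from 76207222 to 76237865, minus strand), varied most among the other members within a group. It was measured at 6.78, 4.24 and 3.27 CPM in *Prmt3* f/f and 3.43, 5.45 and 4.77 CPM in *Prmt3* LKO tumors, so that the highest and the lowest tumor were both *Prmt3* f/f. The means were 4.76 ± 1.81 and 4.55 ± 1.03 CPM (SD, n = 3 each), a log2 fold change of -0.06 (standard error 0.32, 95% interval -0.81 to 0.69, edgeR adjusted p = 0.994). Its sign was not stable, with a log2 fold change of 0.27 without *Prmt3* f/f replicate 7, 0.11 without *Prmt3* LKO replicate 92 and 0.03 with limma-voom on all tumors.

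*Prmt8*, which is not among the 8 genes, had 1 read in *Prmt3* f/f replicate 71, 1 read in *Prmt3* LKO replicate 93 and 0 in the other tumors. It was not tested.

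For the type II enzymes, *Prmt5* (ENSMUSG00000023110, chromosome 14 from 54507187 to 54517525, minus strand), the main source of symmetric dimethylarginine, had 13.88, 19.999 and 18.52 CPM in *Prmt3* f/f and 16.3, 18.4 and 17.7 CPM in *Prmt3* LKO tumors. The 3 *Prmt3* LKO tumors lay within the range of the *Prmt3* f/f tumors. The means were both 17.5 CPM (SD 3.19 and 1.10, n = 3 each). The log2 fold change was -7.04e-05 (standard error 0.17, 95% interval -0.41 to 0.41).

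*Prmt9* (ENSMUSG00000037134, chromosome 8 from 77549397 to 77581338, plus strand), which methylates the splicing factor SF3B2, had 11.6, 10.3 and 9.56 CPM in *Prmt3* f/f and 9.94, 13.2 and 12.2 CPM in *Prmt3* LKO tumors. The means were 10.5 ± 1.04 and 11.8 ± 1.67 CPM (SD, n = 3 each), and the groups overlapped. The log2 fold change was 0.16 (standard error 0.17, 95% interval -0.24 to 0.57, edgeR adjusted p = 0.945).

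The type III gene *Prmt7* (ENSMUSG00000060098, chromosome 8 from 106210936 to 106252794, plus strand) had 12.6, 14.7 and 15.8 CPM in *Prmt3* f/f and 14.3, 14.1 and 13.6 CPM in *Prmt3* LKO tumors. The ratio between its highest and lowest tumor was 1.26, the smallest of the 8 entries, and was 1.22 for the summed *Prmt1* locus. Its means were 14.4 ± 1.63 and 14.004 ± 0.366 CPM (SD, n = 3 each), a log2 fold change of -0.04 (standard error 0.15, 95% interval -0.38 to 0.31, edgeR adjusted p = 0.988). It shares 247 bases with *Smpd3* on the opposite strand, which held 584 to 1406 reads per tumor.

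Across the 7 PRMT genes other than *Prmt3*, log2 fold changes ran from -0.08 to 0.21, with 3 above and 4 below 0. The median of all genes tested was 0.00043 on the same scale. In edgeR's quasi-likelihood test 0 of the 7 were called, as were 0 of all 13892 genes tested, so this count does not set them apart. Every one of the 7 intervals lay inside a 2-fold change in either direction, their outermost bounds being folds of 0.569 (*Prmt2*) and 1.79 (the *Prmt1* entry alone). The groups overlapped in 7 of 7, and the exact permutation p ran from 0.3 to 1. Most genes tested overlapped as well, since groups without overlap made up 6.59% (lower in *Prmt3* LKO) and 5.57% (higher) of them. A difference of 2-fold or more was therefore outside the interval of each gene, and what smaller difference remained possible is given by that interval.

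**Figure D3:**
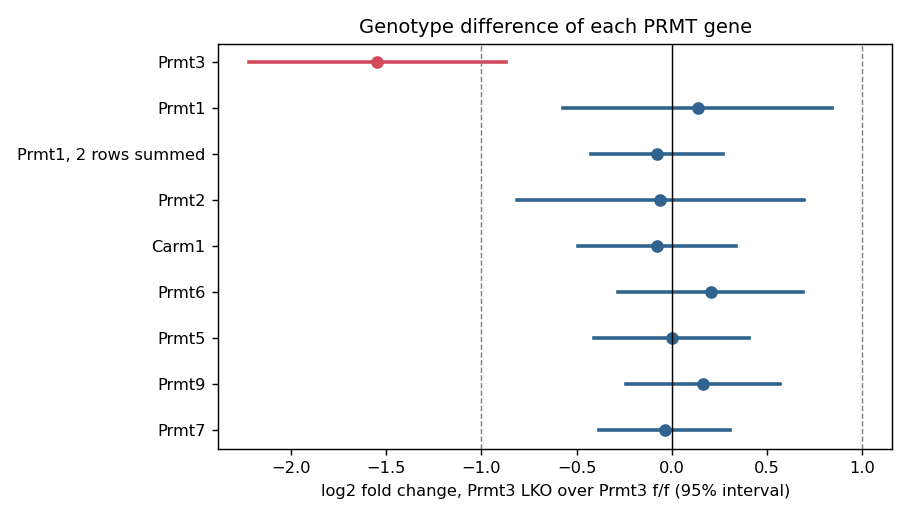
log2 fold change of each PRMT gene in *Prmt3* LKO over *Prmt3* f/f tumors (points), with the 95% interval of edgeR's quasi-likelihood fit (lines) and dashed lines at a 2-fold change. The *Prmt3* interval (-2.22 to -0.87) lies below 0, and those of the other genes include 0.

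To compare levels between genes, CPM were divided by the length of the union of exons in GENCODE M21, with both *Prmt1* entries summed. In *Prmt3* f/f tumors the levels per kilobase were, from high to low, 6.00 ± 0.671 for *Prmt1*, 5.19 ± 0.372 for *Carm1* and 4.41 ± 0.806 for *Prmt5* (CPM per kb, SD, n = 3). The ranges of these neighbors overlapped. *Prmt7* followed at 2.34 ± 0.267, *Prmt9* at 1.85 ± 0.184, *Prmt6* at 1.79 ± 0.295, *Prmt2* at 1.41 ± 0.536 and *Prmt3* at 1.40 ± 0.297 CPM per kb. Only the steps from *Prmt5* to *Prmt7* and from *Prmt7* to *Prmt9* were free of overlap between tumors.

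In *Prmt3* LKO tumors the order of the means was the same, with 5.68 ± 0.428 for *Prmt1*, 4.91 ± 1.03 for *Carm1*, 4.41 ± 0.277 for *Prmt5*, 2.29 ± 0.0598 for *Prmt7*, 2.07 ± 0.294 for *Prmt9*, 2.07 ± 0.366 for *Prmt6*, 1.35 ± 0.305 for *Prmt2* and 0.481 ± 0.150 for *Prmt3* (CPM per kb, SD, n = 3). *Prmt3* and *Prmt2*, which overlapped in *Prmt3* f/f tumors, did not overlap in *Prmt3* LKO tumors, nor did *Prmt5* and *Prmt7* or *Prmt6* and *Prmt2*. *Prmt3* made up 5.76% ± 1.298 of the sum of the 8 genes in *Prmt3* f/f and 2.11% ± 0.765 in *Prmt3* LKO tumors (SD, n = 3 each).

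Summed per kilobase, the 8 genes gave 23.6, 26.1 and 23.5 in *Prmt3* f/f and 21.6, 25.8 and 22.4 in *Prmt3* LKO tumors, and the groups overlapped. Without *Prmt3* the sum was 23.0 ± 1.46 and 22.8 ± 2.32 CPM per kb (SD, n = 3 each), a ratio of 0.990. The type I genes other than *Prmt3* summed to 14.4 ± 1.305 and 14.005 ± 1.855 CPM per kb (SD, n = 3 each). The order of levels depends on the length used and on whether the *Prmt1* entries are summed. The deposited FPKM imply lengths of 1362 bases for the *Prmt1* entry and 10963 bases for *Carm1*, against 3425 and 4852 bases of M21 exons. On the deposited FPKM, with the *Prmt1* entry alone, *Prmt5* was first (3.19 in *Prmt3* f/f tumors) and that entry second (2.51). *Prmt3* was the fifth (1.85) of the 8 genes. The reads of AC155806.1 are left out of this order, so the place of *Prmt1* cannot be compared with that above. The ratio of a single gene between genotypes does not depend on these lengths, whereas sums over genes and shares of them do.

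**Figure D4:**
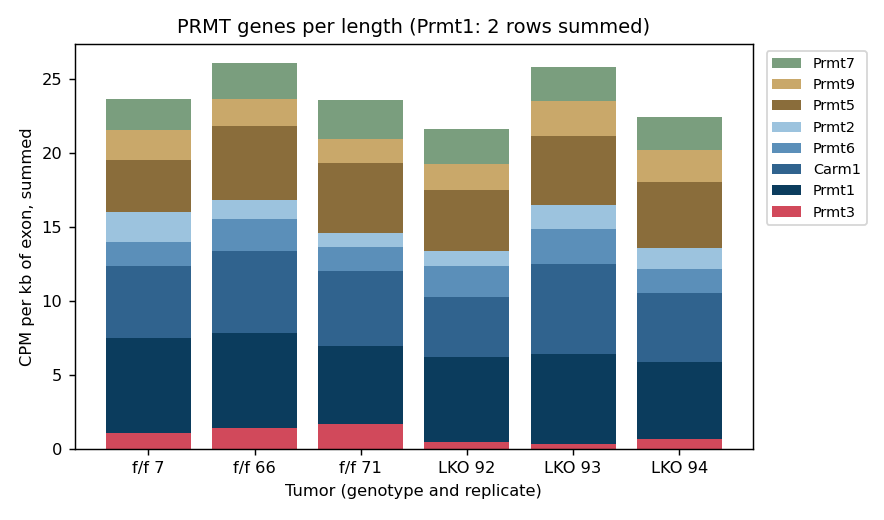
CPM per kilobase of exon for the 8 PRMT genes, stacked from 0, in each tumor, with both *Prmt1* entries summed. The sum ranges from 23.5 to 26.1 in *Prmt3* f/f and from 21.6 to 25.8 in *Prmt3* LKO tumors, and the *Prmt3* layer is thinner in all 3 *Prmt3* LKO tumors.

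Genes that work with the PRMTs were described next by 6 lists. No gene of any list passed the limits in edgeR's quasi-likelihood test, as was true of all 13892 genes tested. Counts at an unadjusted p under 0.05 stand against 6.56% of all genes tested. Groups without overlap stand against 6.59% (lower in *Prmt3* LKO) and 5.57% (higher) of them. In the list of PRMT partners, 10 of 10 genes were tested, 6 above and 4 below 0, with a median log2 fold change of 0.05. *Rps2*, the ribosomal protein substrate and binding partner of PRMT3, had 257, 247 and 259 CPM in *Prmt3* f/f and 333, 331 and 307 CPM in *Prmt3* LKO tumors. The groups did not overlap, and the log2 fold change was 0.35 (standard error 0.15, unadjusted p = 0.0445, edgeR adjusted p = 0.745). *Btg1*, a cofactor of PRMT1, had a log2 fold change of -0.30 (edgeR unadjusted p = 0.0681), and *Pdcd2*, a zinc finger protein that binds RPS2, had 0.31 (edgeR unadjusted p = 0.120). *Wdr77*, the methylosome subunit MEP50 that PRMT5 needs for activity, stood at 14.2 ± 3.98 and 16.0 ± 1.88 CPM (SD, n = 3 each) with overlapping groups.

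In the list of PRMT substrates, 27 of 27 genes were tested, 15 above and 12 below 0, with a median of 0.04. At an unadjusted p under 0.05 there were 3 of the 27 genes, 2 higher and 1 lower, against 6.56% of all genes tested. Besides *Rps2*, these were *Rps10*, a 40S ribosomal protein methylated by PRMT5, and *Npm1*, a nucleolar chaperone. *Rps10* had 7.61, 4.76 and 4.88 CPM in *Prmt3* f/f and 9.77, 13.3 and 10.9 CPM in *Prmt3* LKO tumors, which gave a log2 fold change of 0.98 (standard error 0.24, edgeR adjusted p = 0.592). *Npm1* had 153.4, 144.5 and 119.1 CPM in *Prmt3* f/f and 96.0, 111.5 and 100.9 CPM in *Prmt3* LKO tumors, which gave a log2 fold change of -0.43 (standard error 0.16, edgeR adjusted p = 0.684). Neither pair of groups overlapped. In the whole list 1 gene was lower and 4 were higher without overlap, against 6.59% and 5.57% of all genes tested. Ribosomal protein genes and *Npm1* have many processed pseudogenes, so reads of near-identical copies may have been divided in counting, which makes the levels of *Rps2*, *Rps10* and *Npm1* uncertain. *Pdk1*, the gene of the pyruvate dehydrogenase kinase on which the study centers, had 45.3, 56.9 and 70.97 CPM in *Prmt3* f/f and 74.9, 68.0 and 82.5 CPM in *Prmt3* LKO tumors. Its groups overlapped. The log2 fold change was 0.38 (standard error 0.19, unadjusted p = 0.0820, edgeR adjusted p = 0.784).

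In the list of methylarginine readers, JMJD6 and peptidylarginine deiminases, 8 of 9 genes were tested, 4 above and 4 below 0, with a median of -0.01. *Padi2*, a deiminase that converts arginine to citrulline, had 61, 57 and 67 reads in *Prmt3* f/f and 11, 15 and 27 reads in *Prmt3* LKO tumors. It stood at 2.61 ± 0.234 and 0.887 ± 0.407 CPM (SD, n = 3 each) without overlap, a log2 fold change of -1.55 (standard error 0.39, unadjusted p = 0.00434, edgeR adjusted p = 0.592). *Padi4*, the deiminase of neutrophils, had 8, 42 and 5 reads in *Prmt3* f/f and 2, 0 and 1 reads in *Prmt3* LKO tumors and was not tested. The macrophage and neutrophil marker sums given above were lower in the same tumors, and their part in *Padi2* was not tested. *Jmjd6*, an oxygenase proposed to demethylate arginine, had a log2 fold change of 0.35 without overlap of the groups (edgeR unadjusted p = 0.0628), and *Smndc1*, a Tudor domain splicing factor, had 0.19 (edgeR unadjusted p = 0.346).

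The list of the methionine cycle, which supplies SAM, held 20 tested genes, 16 above and 4 below 0, with a median of 0.07. *Amd1*, the decarboxylase that takes SAM into polyamine synthesis, had 41.1, 34.5 and 29.7 CPM in *Prmt3* f/f and 42.4, 50.7 and 48.3 CPM in *Prmt3* LKO tumors. The groups did not overlap, and the log2 fold change was 0.43 (standard error 0.16, unadjusted p = 0.0315, edgeR adjusted p = 0.697). In the whole list 1 gene was higher and 0 lower without overlap, against 5.57% and 6.59% of all genes tested. *Mat1a*, the liver enzyme that makes SAM, ranged from 616 to 2292 CPM within the *Prmt3* f/f group and from 855.3 to 2012 CPM within the *Prmt3* LKO group. Its log2 fold change was -0.06, and its standard error of 0.51 leaves it undetermined. *Gnmt*, which consumes SAM to methylate glycine, and *Ahcy*, which clears the product S-adenosylhomocysteine, spread as widely, with log2 fold changes of 0.32 (standard error 0.47) and 0.04 (standard error 0.45). *Pemt* had a log2 fold change of 0.44 (edgeR unadjusted p = 0.187) and *Mtrr* of 0.25 (edgeR unadjusted p = 0.382). Without *Prmt3* f/f replicate 71 the median of the list was 0.24, and this tumor had the highest *Mat1a* level.

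Free methylarginines, released when methylated proteins are degraded, are cleared by the DDAH enzymes and by AGXT2, and in part inhibit the nitric oxide synthases. Of 10 genes in this list, 9 were tested, 4 above and 5 below 0, with a median of -0.15, and 0 had an unadjusted p under 0.05. The smallest p belonged to *Agxt2*, at 85.2 ± 11.0 and 114.2 ± 26.6 CPM (SD, n = 3 each, edgeR unadjusted p = 0.0790). *Nos2*, the inducible synthase, had a log2 fold change of -0.92 (standard error 0.60) and *Arg2*, the mitochondrial arginase, of -0.76 (standard error 0.58), both with overlapping groups. In the list of other histone methyltransferases, which act on lysine, 27 genes were tested, 13 above and 14 below 0, with a median of -0.06 and 0 at an unadjusted p under 0.05. The 3 smallest p-values were those of *Kmt2d*, *Smyd2* and *Ehmt2*, with log2 fold changes of 0.31, 0.23 and 0.22 and no overlap of the groups. In the whole list 4 genes were higher and 0 lower without overlap, against 5.57% and 6.59% of all genes tested.

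**Figure D5:**
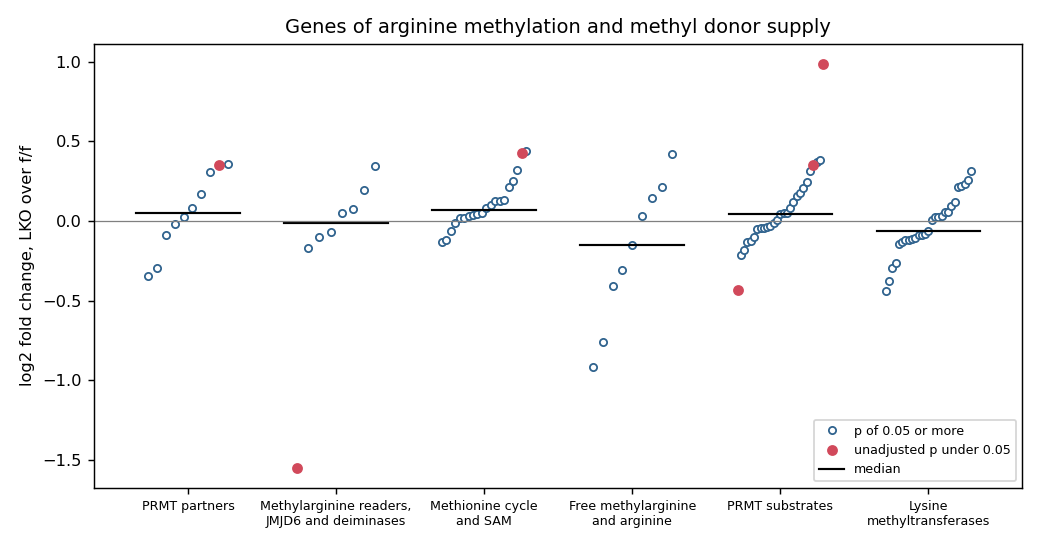
log2 fold change of each tested gene (*Prmt3* LKO over *Prmt3* f/f) in the 6 lists, with a line at the median of each list and filled points for an unadjusted p under 0.05. Medians lie between -0.15 and 0.07, and the points farthest from 0 are *Padi2* (-1.55) and *Rps10* (0.98).

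The genes around *Prmt3* were listed because the deletion lies in this region. Within 1 Mb of *Prmt3* on chromosome 7, 6 of the annotated genes were tested. *Htatip2*, an oxidoreductase gene 4347 bases from *Prmt3*, stood at 24.2, 12.8 and 17.3 CPM in *Prmt3* f/f and 23.8, 25.2 and 34.1 CPM in *Prmt3* LKO tumors. *Prmt3* f/f replicate 7 lay above *Prmt3* LKO replicate 92, so the groups overlapped. Its log2 fold change was 0.61 (standard error 0.26, unadjusted p = 0.0458, edgeR adjusted p = 0.749). *Nav2*, 168256 bases away, had a log2 fold change of 0.42 (standard error 0.21) and overlapping groups. Farther off, *Zdhhc13* (-0.57, standard error 0.26, edgeR unadjusted p = 0.0594) and *E2f8* (-0.84, standard error 0.53, edgeR unadjusted p = 0.154) were lower without overlap. Of all genes tested, 6.59% were lower without overlap. *E2f8* held only 40, 46 and 67 reads in *Prmt3* f/f and 6, 40 and 27 reads in *Prmt3* LKO tumors. The groups of *Csrp3* (0.77) and *Gm2788* (0.26) overlapped. The antisense gene *Gm26856*, which lies within *Prmt3* and shares 1439 bases with it, had 0 reads in every tumor.

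Among the 5 genes whose log2 CPM over the 6 tumors, each centered on its own mean, were closest to those of *Prmt3* were *Sulf1*, *Tgtp2*, *Chil1* and *Gpr35*. Their root mean square distance from *Prmt3* was 0.283, 0.295, 0.299 and 0.327 on the log2 scale, out of 11194 genes with a mean of at least 2 CPM. Their log2 fold changes between genotypes ran from -1.87 (*Chil1*) to -1.04 (*Gpr35*). *Tgtp2*, an interferon-inducible GTPase, had 12.3, 14.7 and 15.5 CPM in *Prmt3* f/f and 4.57, 5.68 and 8.89 CPM in *Prmt3* LKO tumors. No other PRMT gene was near *Prmt3* by this measure. The closest was *Prmt7*, at a distance of 0.805 and rank 2866, and the farthest was *Prmt6*, at 0.983 and rank 9220. The profile of *Prmt3* holds its own genotype difference, so a PRMT gene without such a difference could not be close to it. The ranks of the other PRMT genes are therefore no separate test of them. The 5 closest genes were chosen by their likeness to *Prmt3* over the same 6 libraries, so their genotype differences follow from that choice. Distances and differences are given as a description.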

How the data were processed

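RNA of 3 liver tumors of *Prmt3* f/f and 3 of *Prmt3* LKO mice had been sequenced as mRNA libraries in paired-end mode (150 bp). The authors aligned the reads to GRCm38 with HISAT2 2.0.4, and the submitters' processing notes also name StringTie 1.3.0 and bcl2fastq 2.19. The authors deposited 1 table with whole-number read counts per gene, not normalized, and FPKM values, which divide the count by gene length and library total. The counting tool, annotation release and strand setting are not given in the sources used here. Of the table, 34745 gene rows and all 12 value columns were read, 1013830 blank rows were left out, and 0 value columns were unused.

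Genes were filtered with filterByExpr (minimum count 10, minimum total 15), scaled by TMM and tested in edgeR 4.0.16 (R 4.3.3) by its quasi-likelihood test, with Benjamini-Hochberg adjustment over 13892 genes. Calls needed an adjusted p under 0.05 and a fold of at least 2 or at most 0.5. Intervals cover 95%. For members and listed genes an exact permutation test (two-sided) was run on log2 CPM (prior count 2, scipy 1.17.1). Alternatives were DESeq2 1.42.0, no TMM scaling, a filter of 1 count or more only, a filter of 1 CPM or more on the mean, limma-voom (limma 3.58.1), limma on log2 FPKM with a pseudocount of 1 or 0.1, and each tumor left out. The fits were also run on simulated counts with larger changes than those of the PRMT genes other than *Prmt3*. That run does not measure power for such small differences, and its outcome is not used here. The chi-square of counts over its degrees of freedom was 46.1 to 162 between replicates of a group, where 1 is sampling noise, so no library was taken as deposited in duplicate. This says nothing of whether tumors came from separate mice.

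The 8 members and the gene lists were chosen with earlier results of these data known. From each list the 3 genes with the smallest unadjusted p are named, plus *Rps2*, *Pdk1*, *Mat1a*, *Gnmt*, *Ahcy* and *Wdr77*, the 5 genes most like *Prmt3* with predicted genes passed over (1 of them is not reported here), and genes that overlap a member or lie within 1 Mb of *Prmt3*. *Padi4* was named after its values were seen. Promoter windows were taken from RefSeq (GRCm38.p6) and exon lengths from GENCODE M21.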

Additional observations from a re-analysis of the deposited data

How the results depend on the processing

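The 13 alternatives were run for every gene chosen by the rule for named genes, except that *Arg2* was not tested with the filter of 1 CPM on the mean. *Prmt3* kept a negative log2 fold change in all of them, between -1.80 (without *Prmt3* LKO replicate 94) and -0.81 (FPKM with a pseudocount of 1), with leave-one-out values of -1.80 to -1.34. It passed the limits only with DESeq2 (-1.55, adjusted p = 0.00357), and its adjusted p ranged up to 0.996. *Prmt6* and *Prmt9* kept a positive sign. The sign of 5 of the 8 PRMT genes turned under an alternative. *Prmt1* became -0.077 with the overlapping entry summed and ran from -0.070 to 0.44 with single tumors left out, while the summed locus stayed between -0.17 and -0.018. *Prmt2* was 0.031 with limma-voom and -0.27 to 0.27 with single tumors left out (0.27 without *Prmt3* f/f replicate 7 and 0.11 without *Prmt3* LKO replicate 92). *Prmt5* was 0.0018 with DESeq2, 0.016 with limma-voom and -0.15 to 0.11 with single tumors left out. *Carm1* ran from -0.26 to 0.044 and *Prmt7* from -0.13 to 0.039 with single tumors left out.

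Of 33 other genes so chosen, 5 turned sign. *Mat1a* was 0.068 with limma-voom, 0.0285 and 0.0289 on FPKM with a pseudocount of 1 and 0.1, and -0.46 to 0.27 with single tumors left out. *Ahcy* was -0.0259 and -0.0270 on the same FPKM and -0.31 to 0.40 with single tumors left out. With single tumors left out, *Gnmt* ran from -0.0093 to 0.89, *Gm2788* from -0.58 to 0.98 and *Smndc1* from -0.00011 to 0.29. The count of genes called lower was 0 with edgeR, 43 with DESeq2 and 2 with no filter beyond 1 count, and the count called higher was 0, and 9 with DESeq2. The median of the methionine list ran from 0.027 to 0.24 with single tumors left out, the latter without *Prmt3* f/f replicate 71. The medians of the other lists took both signs, from -0.02 to 0.16 for partners, -0.11 to 0.03 for readers, -0.25 to 0.0026 for free methylarginine, -0.05 to 0.12 for substrates and -0.07 to 0.07 for lysine methyltransferases. The causes of these shifts were not tested. Leaving a tumor out leaves 2 in its group. Between 45 and 76 reads of *Prmt3* in *Prmt3* LKO tumors, and 52 to 101 reads of the *Prmt1* entry, limit both values. No paired analysis was made, since nothing in the labels pairs *Prmt3* f/f tumors with *Prmt3* LKO tumors.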
